A study of Caenorhabditis elegans with 15 samples.

Results

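The genes described here are the chemoreceptor genes with measurable transcript in second-stage (L2) larvae of the nematode *Caenorhabditis elegans*. They were chosen by gene name and by level: a gene had to belong to one of the chemoreceptor families (*sra*, *srab*, *srb*, *srbc*, *srd*, *sre*, *srg*, *srh*, *sri*, *srj*, *srm*, *srr*, *srsx*, *srt*, *sru*, *srv*, *srw*, *srx*, *srxa*, *srz* or *str*, with *odr-10*) and to average at least 0.5 CPM (a gene's counts per 1e6 counts of its library) over the 15 libraries. Of 518 such family genes among the 16259 genes of the deposited table, 59 (11.4%) met this level. They came from 17 of the 21 families listed.

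The receptors of these families cross the membrane several times, couple to G proteins and bind odours, tastants or pheromones. Many are made in only a few ciliated sensory neurons of the head and tail, where the receptor protein is carried into the cilium and signals through G protein alpha subunits, guanylyl cyclases and cation channels. The families are grouped into the Sra, Str and Srg superfamilies and a set of separate families, of which *srw* is related to peptide receptors.

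The study sequenced poly-A RNA of whole L2 larvae fed with *E. coli* on plates, with 5 libraries each of *sma-6* mutants, *sma-3* mutants and the wild type (N2). SMA-6 is the type I receptor of the DBL-1 pathway, a BMP-like pathway that sets body size. SMA-3 is a receptor-regulated Smad, a transcription factor that acts downstream of that receptor. The comparisons made were *sma-6* mutants against the wild type, *sma-3* mutants against the wild type, and *sma-6* against *sma-3* mutants.

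The alleles were not given in the sources used here, and no group carried a further mutation or treatment that the labels name. Replicates are called by the number in their labels, which is 1, 2, 3, 4 and 6 in *sma-6* mutants, 2, 3, 4, 5 and 9 in *sma-3* mutants and 1 to 5 in the wild type. The labels do not say whether the libraries of a genotype came from separate cultures, so p-values measure only the spread between these libraries. The sample-sheet numbers ran in a separate block for each genotype, so library order and genotype cannot be told apart.

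Totals ran from 16.5 to 48.3 M counts per library with a median of 21 M. A level of 3 counts therefore stands for 0.0621 to 0.182 CPM. The mutated genes fitted their labels: *sma-6* transcript was at 8.83 to 9.75 CPM in *sma-6* mutants, against 37.2 to 47.7 CPM in the wild type, and *sma-3* transcript was at 8.85 to 10.8 CPM in *sma-3* mutants, against 22.6 to 32.5 CPM in the wild type. Wild-type replicate 5 stood apart, with a mean log2 distance of 0.377 to its own genotype and 0.359 to the *sma-3* mutants. The remaining wild-type libraries lay at 0.27 to 0.317 from their own genotype. Marker genes of body wall muscle, intestine, epidermis and germline (8 of 8 each) and pharynx (6 of 7) were among the listed genes.

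The chemoreceptor genes were low as a group. By length, their median was 0.779 CPM per kb of exon in the wild type, against 7.99 CPM per kb over the 16068 listed genes with an exon length. Their median level was 1.01 CPM over the 15 libraries, with 29 genes under 1 CPM and 8 at 5 CPM or more. In 26 of them every library held at least 10 counts. The level was set on the mean of all libraries, so 12 of the 59 had at least 1 genotype mean under 0.5 CPM.

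Just above that level were *sri-32* (0.509 CPM), *srh-56* (0.513 CPM) and *srh-129* (0.515 CPM). Just below it were *srm-4* (0.491 CPM), *srh-2* (0.487 CPM) and *srj-23* (0.476 CPM). At these levels a library held between 0 and 31 counts of a gene.

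The 2 genes with the highest CPM made up 54.2% of the chemoreceptor CPM in the wild type. *srr-4* (WBGene00005655; WBcel235, chromosome V, 5019224 to 5022363, plus strand) held 39.1% of it, and *srw-85* (WBGene00005832; minus strand of chromosome V, 19429387 to 19431136) held 15.1%. The share of *srw-85* in *sma-6* mutants was 0.362%. The other 57 genes shared 45.8% of the wild-type total.

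*srw-85* was nearly lost in *sma-6* mutants and was higher in *sma-3* mutants than in the wild type. It was at 0.846, 0.722, 0.611, 0.748 and 1.25 CPM in *sma-6* mutants, with 12 to 26 counts per library. The *sma-3* libraries held 52.1, 52.1, 61.5, 60.3 and 60.9 CPM, and the wild-type libraries held 34.9, 36.2, 35.1, 41.6 and 35.5 CPM. There was no overlap between genotypes: every *sma-6* library lay below, and every *sma-3* library above, all wild-type libraries.

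The means of *srw-85* were 0.836 ± 0.248 CPM in *sma-6* mutants, 57.4 ± 4.84 CPM in *sma-3* mutants and 36.7 ± 2.82 CPM in the wild type (SD, n = 5 each). The *sma-6* mean was 2.28% of the wild-type mean, a log2 ratio (*sma-6* over wild type) of -5.45 ± 0.13 (SE), or a level 43.6-fold lower. Against *sma-3* mutants it was -6.09 ± 0.13 (SE). The gene had been singled out for its fall in *sma-6* mutants, so these differences are described without a test. In *sma-3* mutants it was 1.57-fold higher than in the wild type (log2 ratio 0.65 ± 0.08, SE; edgeR adjusted p = 0.000178).

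Among the 13720 genes tested, the log2 ratio of *srw-85* was the second lowest in *sma-6* mutants against the wild type and the lowest against *sma-3* mutants. Only *C08E3.13* lay lower against the wild type, and 3 genes in all lay below -4. By length, *srw-85* was at 0.587 CPM per kb in *sma-6* mutants, at 40.3 CPM per kb in *sma-3* mutants and at 25.7 CPM per kb in the wild type. It ranked 39 among the 59 chemoreceptor genes in *sma-6* mutants and 2 in the wild type and in *sma-3* mutants alike. In *sma-6* mutants 18.6% of listed genes were at a lower level per kb, against 75.3% in the wild type.

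The relative spread of *srw-85* between replicates was the smallest among the chemoreceptor genes. Its biological coefficient of variation, the replicate spread beyond counting error that edgeR estimates, was 8.73%. The median was 21.2% over the 59 genes and 10.99% over all genes tested. *srx-68* had the highest among the chemoreceptor genes, at 47.9%.

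**Figure D1:**
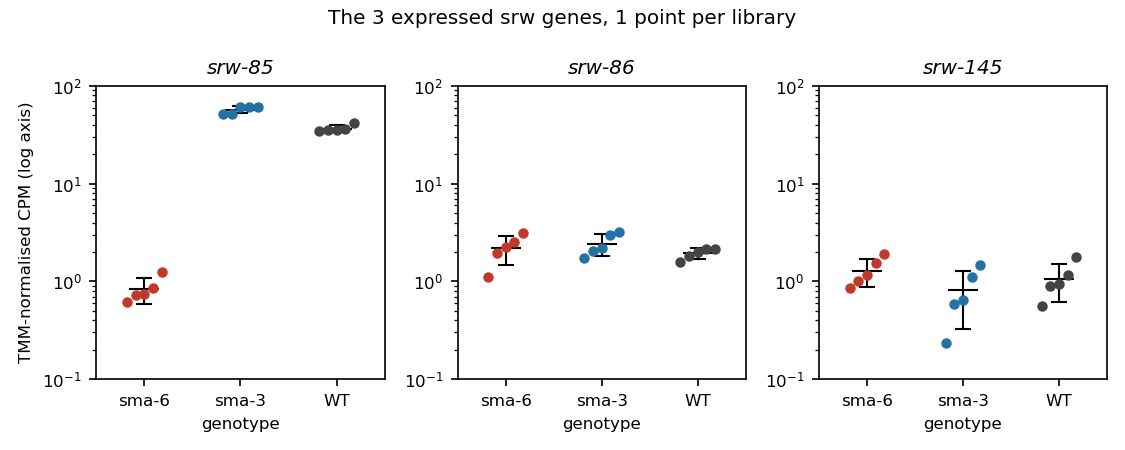
Levels of the 3 *srw* genes in each library, as TMM-normalised CPM on a log axis, with the mean and SD of the 5 libraries of each genotype. The *sma-6* libraries of *srw-85* sit between 0.611 and 1.25 CPM, below all *sma-3* and wild-type libraries, while the genotypes overlap in *srw-86* and *srw-145*.

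The other *srw* genes with measurable transcript overlapped between all genotypes. Of 29 *srw* genes listed, 22 lie on chromosome V and only *srw-85*, *srw-86* and *srw-145* reached the level. *srw-86* (WBGene00005833; chromosome V, 19400077 to 19400719, minus strand) lies 28.7 kb from *srw-85*. It was at 1.96, 2.53, 1.12, 3.13 and 2.27 CPM in *sma-6* mutants, at 2.03, 2.98, 1.75, 3.19 and 2.20 CPM in *sma-3* mutants, and at 1.83, 1.56, 1.99, 2.15 and 2.17 CPM in the wild type. Its genotypes overlapped, with a log2 ratio of 0.21 ± 0.23 in *sma-6* mutants (SE; edgeR adjusted p = 0.662).

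*srw-145* (WBGene00011197; chromosome V, 13937150 to 13939617) averaged 1.29 ± 0.418 CPM in *sma-6* mutants, 0.810 ± 0.481 CPM in *sma-3* mutants and 1.06 ± 0.452 CPM in the wild type (SD, n = 5 each). Its log2 ratio in *sma-6* mutants was 0.31 (edgeR adjusted p = 0.688). The 28 *srw* genes other than *srw-85* summed to 6.53 ± 1.25 CPM in *sma-6* mutants and 5.98 ± 1.40 CPM in the wild type (SD, n = 5 each), so the sums differed by less than the spread between replicates.

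Genes on both sides of *srw-85* on the chromosome were still present in *sma-6* mutants. The 5 nearest listed genes on each side span 41.2 kb, and 7 of these 10 genes had enough counts to be tested. The nearest tested gene, *C25F9.11*, lies 1.31 kb away and averaged 10.6 ± 3.83 CPM in *sma-6* mutants and 9.47 ± 1.01 CPM in the wild type (SD, n = 5 each; log2 ratio 0.18, edgeR adjusted p = 0.680). *C25F9.14*, at 5.35 kb, had a log2 ratio of 0.08 (edgeR adjusted p = 0.790). *C25F9.5*, *C25F9.4* and *M04C3.2* had log2 ratios of -0.22, -0.20 and -0.19 (edgeR adjusted p = 0.333, 0.334 and 0.248), and *C25F9.9* one of -0.61 (edgeR adjusted p = 0.0617).

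*M04C3.1*, 6.76 kb away, was the only one of the 7 called lower in *sma-6* mutants than in the wild type. It averaged 37.9 ± 2.55 CPM in *sma-6* mutants and 46.6 ± 4.32 CPM in the wild type (SD, n = 5 each; log2 ratio -0.30, edgeR adjusted p = 0.0407). That call was lost without wild-type replicate 2, 4 or 5, *sma-3* replicate 4 or *sma-6* replicate 1, 2, 3 or 6 (edgeR adjusted p of 0.0529 to 0.0962). The 3 untested neighbours were low, with *C25F9.15* at 0.215 CPM in *sma-6* mutants and 0.375 CPM in the wild type, *C25F9.2* at 0.0481 and 0.0763 CPM, and *C25F9.16* at 0.253 and 0.234 CPM in the same order. Among the tested genes of that window no log2 ratio but that of *srw-85* was below -1.

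In *sma-3* mutants against the wild type, *C25F9.5*, 18.5 kb from *srw-85*, was also called higher, with a log2 ratio of 0.64 ± 0.12 (SE; edgeR adjusted p = 0.00292). It averaged 7.56 ± 1.08 CPM in *sma-3* mutants and 4.83 ± 0.505 CPM in the wild type (SD, n = 5 each). The other 6 tested neighbours were not called in that comparison. *C25F9.5* was lower in *sma-6* mutants than in *sma-3* mutants by -0.86 (edgeR adjusted p = 0.000190), as were *C25F9.9* (-0.68, edgeR adjusted p = 0.0138), *C25F9.4* (-0.40, edgeR adjusted p = 0.0196) and *M04C3.1* (-0.28, edgeR adjusted p = 0.0205). The call of *C25F9.4* was lost without *sma-6* replicate 2 (edgeR adjusted p = 0.0527). That of *M04C3.1* was lost in the fit to the 13 libraries whose replicate number recurs between genotypes (edgeR adjusted p = 0.0669). No annotated gene overlaps *srw-85*.

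**Figure D2:**
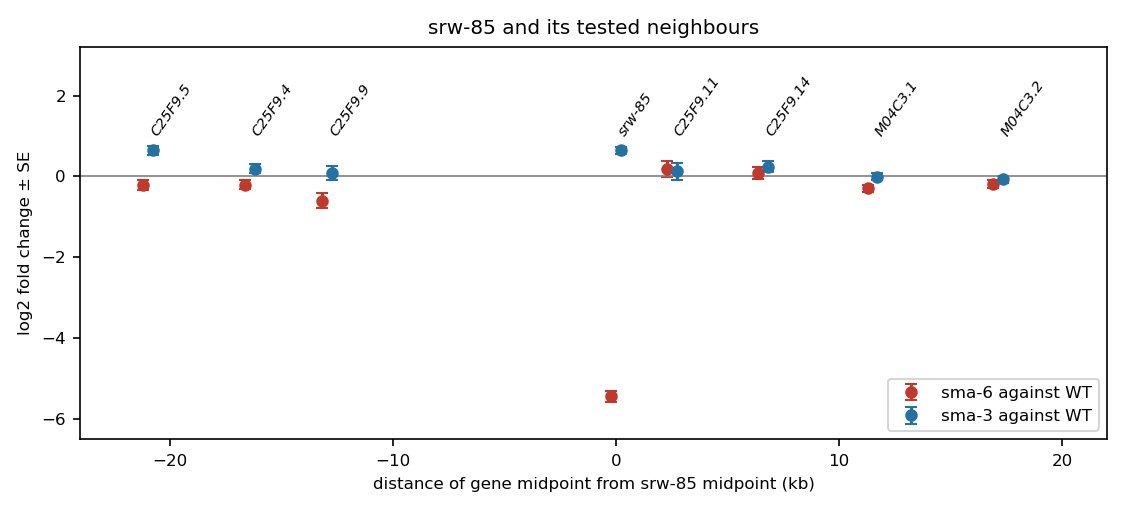
Log2 fold changes with standard errors of *srw-85* and the tested genes among its 5 nearest listed neighbours on each side, plotted against the distance from *srw-85* in kb. Against the wild type, the *sma-6* value is -5.45 for *srw-85* and between -0.61 and 0.18 for its neighbours.

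In *sma-6* mutants against the wild type 3 of the 58 genes other than *srw-85* were called (5.17%), *str-176* and *srg-31* higher and *srh-237* lower, where 6.50% of all genes tested were called, 3.00% higher and 3.51% lower. At an unadjusted p under 0.05 edgeR had 14 of the 58 (24.1%), 9 of them higher, where 21.2% of all genes passed. The median log2 ratio was 0.15 over the 59 genes and 0.0052 over all genes, and 40 of the 59 were above 0, where 51.3% of all genes were. Leaving out *srw-85*, values ran from -0.89 in *srt-28* to 1.23 in *srg-31*, and 57 of 58 log2 ratios were within 1 of 0.

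In *sma-3* mutants 4 genes were called higher than in the wild type and none lower. They were *srw-85*, *srh-71*, *srh-70* and *srj-14*. Of these *srh-70* averaged 0.345 CPM in the wild type and met the level of 0.5 CPM only through the mutants, so its call is not independent of how it was chosen. Over all genes tested 14.6% were called, 4.40% higher and 10.2% lower. With edgeR 12 of the 59 genes had an unadjusted p under 0.05, 11 of them higher, where 30.1% of all genes did. The median log2 ratio was 0.26 over the 59 genes and 0.01 over all genes, and 43 of the 59 were above 0, where 52.1% of all genes were.

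DESeq2 called 5 of the 59 genes in *sma-3* mutants against the wild type and limma-voom 4. The authors' deposited table for this comparison gives 3 of the 59 a false discovery rate under 0.05, all of them higher. Without wild-type replicate 5 edgeR called 6, with *srr-1* and *sru-27* added. It called 7 without *sma-3* replicate 2 and 2 without wild-type replicate 3, *sma-3* replicate 5 or *sma-3* replicate 9. Shares of all genes are not given for these settings, so the counts show only how far the receptor calls depend on them.

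Between the mutants 6 of the 58 genes other than *srw-85* were called, 3 higher in *sma-6* mutants than in *sma-3* mutants and 3 lower, where 23.1% of all genes tested were called, 12.7% higher and 10.3% lower. The 3 higher genes were *str-176*, *str-31* and *srsx-34*, and the 3 lower ones were *sri-40*, *srr-1* and *srsx-19*. The median log2 ratio was -0.09 over the 59 genes and 0.0077 over all genes. The comparisons share libraries, so their values are given side by side and are not independent of each other. Together they called 12 of the 59 genes, *srw-85* in *sma-3* mutants against the wild type among them. The share of all genes called in any of the comparisons was not computed, so 12 of 59 cannot be set against a background.

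The libraries of *sma-6* mutants and the wild type did not overlap in 5 of the 59 genes, where 8.24% of all genes did not overlap, 3.73% higher and 4.50% lower. These were *srw-85* and *srh-237*, lower in *sma-6* mutants, and *str-176*, *srx-45* and *sra-10*, higher. In *sma-3* mutants, set against the wild type, *srr-4*, *srw-85*, *srh-71*, *sra-10* and *srh-70* did not overlap, all higher in *sma-3* mutants, where 9.70% of all genes did not overlap, 3.34% higher and 6.36% lower. Between *sma-6* and *sma-3* mutants the count was 3, where 15.9% of all genes did not overlap, 8.34% higher and 7.57% lower. These were *srw-85* and *sri-40*, lower in *sma-6* mutants, and *str-31*, higher. *srw-85* had been singled out for its fall in *sma-6* mutants. In the comparisons with them, only the other genes named can be set beside the shares of all genes.

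**Figure D3:**
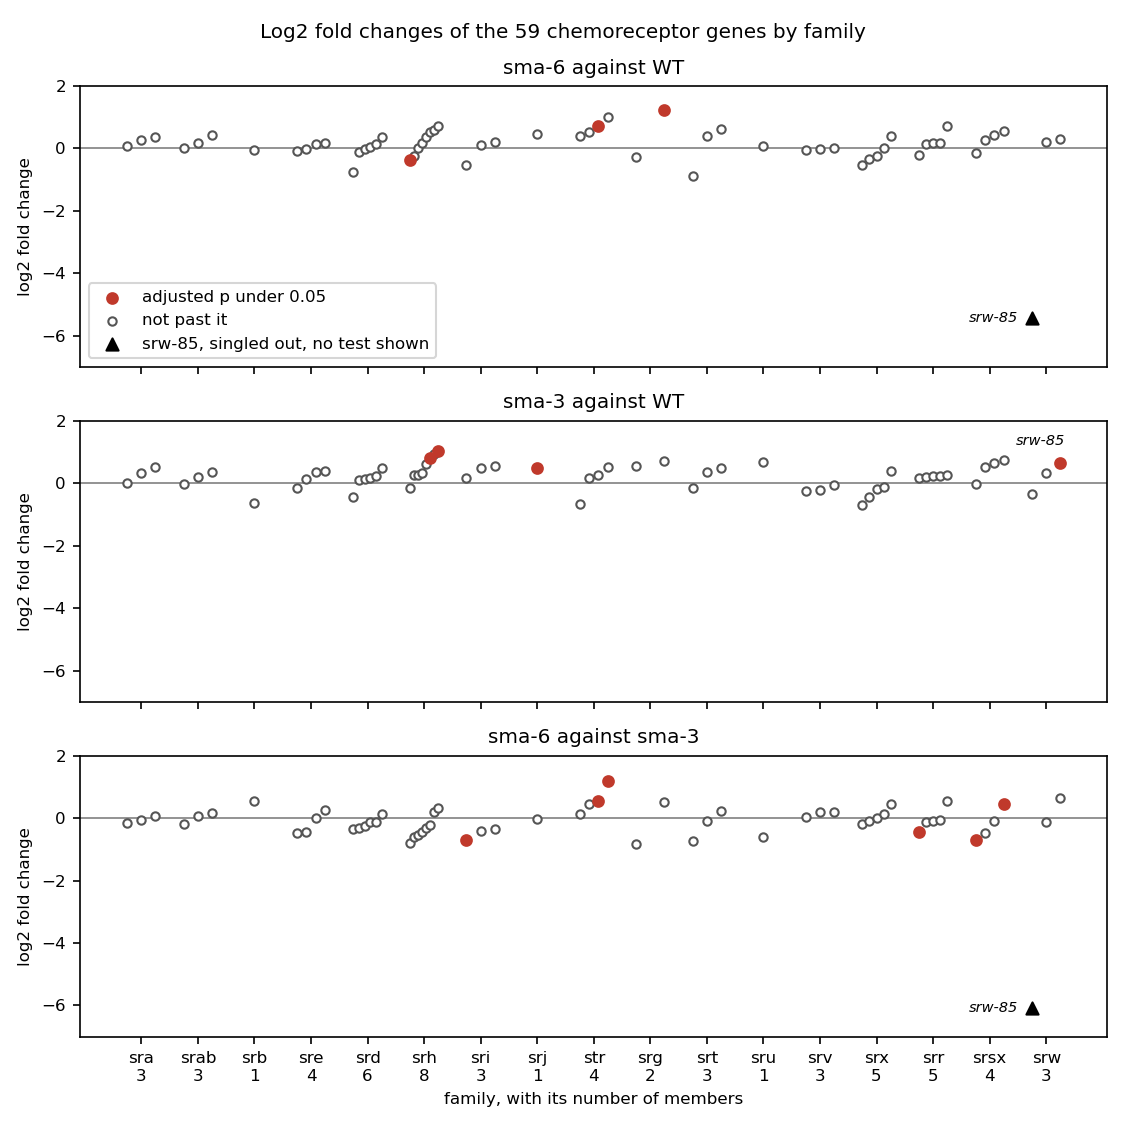
Log2 fold changes of the 59 chemoreceptor genes in the 3 comparisons, ordered by family, with genes called at an adjusted p under 0.05 marked. *srw-85* is drawn as a triangle in the comparisons with *sma-6* mutants because no test is given for it there, and 57 of the 58 other genes lie within 1 of 0 in each comparison.

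The summed level of the 58 genes other than *srw-85* was 230.2 ± 20.7 CPM in *sma-6* mutants, 233.9 ± 19.4 CPM in *sma-3* mutants and 207 ± 6.80 CPM in the wild type (SD, n = 5 each). The *sma-6* libraries ran from 195 to 249 CPM, the *sma-3* libraries from 212 to 265 CPM and the wild-type libraries from 199 to 213 CPM. All ranges overlapped. In these whole animals fewer cells of a type and less RNA per cell cannot be told apart.

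Of the separate families, *srr* had the largest share of its listed genes above the level, with 5 of 7 (71.4%). *srr-4* had the highest level per kb among the chemoreceptor genes, at 66.1 CPM per kb in the wild type. Not divided by length, it was at 111, 109, 85.6, 114 and 113 CPM in *sma-6* mutants, at 102, 110, 102, 133 and 118.9 CPM in *sma-3* mutants, and at 93.0, 101.4, 97.6, 89.7 and 94.5 CPM in the wild type. All *sma-3* libraries lay above all wild-type libraries, while 1 *sma-6* library lay below them. Neither log2 ratio of *srr-4* to the wild type passed the test. It was 0.16 for *sma-6* mutants (edgeR adjusted p = 0.280) and 0.25 for *sma-3* mutants (edgeR adjusted p = 0.0546). In *sma-3* mutants edgeR did call *srr-4* with a minimum count of 30, library totals only or the 2 compared genotypes only. It also did so without *sma-3* replicate 2 or 4 or *sma-6* replicate 3 or 4, and DESeq2 called it too. Against *sma-3* mutants the *sma-6* value was -0.09 (edgeR adjusted p = 0.489). *srr-6* lies 4004 bp from *srr-4* on the same strand and averaged 1.45 ± 0.438 CPM in *sma-6* mutants, 1.56 ± 0.522 CPM in *sma-3* mutants and 1.32 ± 0.275 CPM in the wild type (SD, n = 5 each).

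*srr-1* was called lower in *sma-6* mutants than in *sma-3* mutants. It was at 8.77, 7.31, 8.10, 8.23 and 6.76 CPM in *sma-6* mutants and at 11.5, 7.83, 11.5, 10.2 and 11.6 CPM in *sma-3* mutants, and the ranges overlapped through 1 *sma-3* library. The wild type held 13.6 CPM in replicate 5 and 7.42 to 8.21 CPM in the other libraries. The log2 ratio between the mutants was -0.43 ± 0.15 (SE; edgeR adjusted p = 0.0479). The call was lost without wild-type replicate 4, *sma-3* replicate 2, 4, 5 or 9, or *sma-6* replicate 2, 3 or 6 (edgeR adjusted p of 0.0562 to 0.110). *srr-1* also overlaps another annotated gene.

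The *srsx* family had 4 of 22 listed genes above the level, and its called members moved in opposite directions between the mutants. *srsx-34* was at 10.99, 12.3, 8.45, 10.8 and 11.97 CPM in *sma-6* mutants and at 6.79, 9.29, 9.23, 8.34 and 6.44 CPM in *sma-3* mutants. The log2 ratio was 0.45 ± 0.15 (SE; edgeR adjusted p = 0.0367), and 1 *sma-6* library lay inside the *sma-3* range. In the wild type it averaged 8.03 ± 1.68 CPM (SD, n = 5).

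*srsx-19* averaged 0.600 ± 0.137 CPM in *sma-6* mutants, 0.963 ± 0.211 CPM in *sma-3* mutants and 0.647 ± 0.121 CPM in the wild type (SD, n = 5 each). Its log2 ratio between the mutants was -0.68 ± 0.23 (SE; edgeR adjusted p = 0.0439). The call of *srsx-34* was lost without wild-type replicate 3, *sma-3* replicate 2, 5 or 9 or *sma-6* replicate 1, 2, 4 or 6 (edgeR adjusted p of 0.0506 to 0.107). That of *srsx-19* was lost without wild-type replicate 1, *sma-3* replicate 3, 4 or 5 or *sma-6* replicate 2, 3, 4 or 6 (edgeR adjusted p of 0.0540 to 0.0953). DESeq2 and limma-voom did not call *srsx-19* either (adjusted p = 0.0697 and 0.0502).

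In the Str superfamily 22 of 224 listed genes met the level, and the *str* family with *odr-10* held 4 of them. All 4 had log2 ratios above 0 in *sma-6* against *sma-3* mutants, and 2 of them passed the test. *str-176* (WBGene00006220; chromosome IV, 8460999 to 8463816, minus strand) was at 10.4, 12.8, 11.6, 17.1 and 10.7 CPM in *sma-6* mutants, at 6.27, 8.94, 9.27, 11.2 and 6.99 CPM in *sma-3* mutants, and at 8.41, 8.36, 6.74, 9.29 and 5.28 CPM in the wild type. All *sma-6* libraries were above all wild-type libraries, and they overlapped the *sma-3* range. The log2 ratio in *sma-6* mutants was 0.71 ± 0.18 (SE) against the wild type (edgeR adjusted p = 0.0189) and 0.55 against *sma-3* mutants (edgeR adjusted p = 0.0279).

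The call of *str-176* against the wild type was lost without wild-type replicate 3 or *sma-6* replicate 4 (edgeR adjusted p of 0.0556 to 0.0567). Its call against *sma-3* mutants was lost without *sma-3* replicate 2 or 9 or *sma-6* replicate 2 or 4 (edgeR adjusted p of 0.0545 to 0.0880). In *sma-3* mutants against the wild type its log2 ratio was 0.16 (edgeR adjusted p = 0.593).

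*str-31* was at 1.53, 1.35, 1.27, 0.837 and 0.869 CPM in *sma-6* mutants and at 0.236, 0.234, 0.795, 0.532 and 0.678 CPM in *sma-3* mutants, with no overlap. Its log2 ratio between the mutants was 1.18 ± 0.36 (SE; edgeR adjusted p = 0.0260). The wild type lay between them at 0.817 ± 0.421 CPM (SD, n = 5) and overlapped both. The call was lost without *sma-3* replicate 2 or 3 or *sma-6* replicate 1, 2 or 3 (edgeR adjusted p of 0.0512 to 0.0655), and *str-31* met the level with a *sma-3* mean of 0.495 CPM.

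*odr-10* (WBGene00003856; chromosome X, 6864315 to 6865939, minus strand) encodes the diacetyl receptor of the AWA olfactory neurons. It was at 1.80, 2.44, 2.04, 4.18 and 2.41 CPM in *sma-6* mutants, at 2.07, 2.16, 2.11, 3.68 and 1.82 CPM in *sma-3* mutants, and at 1.27, 1.67, 2.35, 2.02 and 2.70 CPM in the wild type. The genotypes overlapped throughout. The log2 ratio was 0.39 in *sma-6* and 0.26 in *sma-3* mutants, each ± 0.26 (SE; edgeR adjusted p = 0.418 and 0.535).

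*srh* was the largest family, with 8 of 90 listed genes above the level and 3 of them called. Against the wild type, *srh-237* was called in *sma-6* mutants, where 6.50% of all genes tested were. In *sma-3* mutants *srh-71* and *srh-70* were called, where 14.6% of all genes were. *srh-237* (WBGene00005444; chromosome V, 17090379 to 17091714, plus strand) was at 8.46, 7.90, 8.25, 7.35 and 9.94 CPM in *sma-6* mutants and at 11.1, 10.1, 10.98, 10.6 and 11.2 CPM in the wild type. The groups did not overlap, and the log2 ratio was -0.36 ± 0.11 (SE; edgeR adjusted p = 0.0493). This call was lost without any 1 of the 5 wild-type replicates, *sma-3* replicate 3 or *sma-6* replicate 1, 2, 3 or 4 (edgeR adjusted p of 0.0575 to 0.117). With limma-voom its adjusted p was 0.0530. The *sma-3* libraries averaged 9.77 ± 1.52 CPM (SD, n = 5) and overlapped both other genotypes.

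*srh-71* (WBGene00005292; chromosome II, 3123506 to 3124899) was at 1.37, 1.70, 2.15, 1.77 and 2.37 CPM in *sma-3* mutants and at 1.33, 0.855, 1.25, 0.884 and 1.11 CPM in the wild type. The groups did not overlap. The log2 ratio was 0.81 ± 0.20 (SE; edgeR adjusted p = 0.0127), and the call stood in each of the 15 fits that left out 1 library, though not in the fit to the 13 libraries whose replicate number recurs between genotypes (edgeR adjusted p = 0.0534). In *sma-6* mutants *srh-71* averaged 1.38 ± 0.216 CPM, with a log2 ratio of 0.37 against the wild type (edgeR adjusted p = 0.326).

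*srh-70* averaged 0.704 ± 0.175 CPM in *sma-3* mutants and 0.345 ± 0.116 CPM in the wild type (SD, n = 5 each), a log2 ratio of 1.05 ± 0.34 (SE; edgeR adjusted p = 0.0437). Its wild-type mean was under the level of 0.5 CPM, so it was taken up through the mutants. Its call was lost without wild-type replicate 1, 2, 3 or 4, *sma-3* replicate 4, 5 or 9 or *sma-6* replicate 6 (edgeR adjusted p of 0.0543 to 0.101). In *sma-6* mutants it averaged 0.561 ± 0.260 CPM (SD, n = 5) and overlapped both other genotypes.

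*srj-14* (WBGene00005602; chromosome V, 7369708 to 7372131) was the only *srj* gene above the level. It was at 6.82, 7.58, 5.70, 8.32 and 6.51 CPM in *sma-6* mutants, at 7.49, 6.55, 6.20, 8.03 and 7.28 CPM in *sma-3* mutants, and at 4.76, 5.61, 3.92, 6.70 and 4.51 CPM in the wild type. The mutants were alike in range, and both overlapped the wild type through wild-type replicate 4. The log2 ratio was 0.48 ± 0.14 in *sma-3* mutants (SE; edgeR adjusted p = 0.0292) and 0.45 ± 0.14 in *sma-6* mutants (SE; edgeR adjusted p = 0.0603). The call in *sma-3* mutants was lost without wild-type replicate 1 or 3 or *sma-3* replicate 5 or 9 (edgeR adjusted p of 0.0577 to 0.0727).

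*sri-40* (WBGene00005552; chromosome II, 3177963 to 3180478) had the lowest adjusted p between the mutants among the 58 genes other than *srw-85*. It was at 2.33, 1.99, 1.38, 2.11 and 1.83 CPM in *sma-6* mutants, at 3.39, 3.27, 2.94, 2.39 and 3.64 CPM in *sma-3* mutants, and at 2.43, 2.59, 2.82, 3.85 and 2.23 CPM in the wild type. Mutant libraries did not overlap, and 1 *sma-6* library lay inside the wild-type range. The log2 ratio between the mutants was -0.70 ± 0.18 (SE; edgeR adjusted p = 0.00978), and the call stood in each of the 15 fits without 1 library, though not in the fit to the 13 libraries with a recurring number (edgeR adjusted p = 0.0544). Against the wild type the *sma-6* value was -0.52 (edgeR adjusted p = 0.0945).

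The *srd* family had 6 of 24 listed genes above the level and none called in any comparison by edgeR, DESeq2 or limma-voom. At an unadjusted p under 0.05 edgeR had 1 of them in *sma-6* mutants against the wild type and 0 in the other comparisons. Its highest in CPM, *srd-53*, averaged 4.21 ± 1.502 CPM in *sma-6* mutants, 3.82 ± 1.36 CPM in *sma-3* mutants and 3.34 ± 1.73 CPM in the wild type (SD, n = 5 each). Across the Str superfamily the median log2 ratio was 0.19 in *sma-6* mutants and 0.27 in *sma-3* mutants against the wild type, and -0.24 between the mutants. The corresponding medians over all genes were 0.0052, 0.01 and 0.0077.

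**Figure D4:**
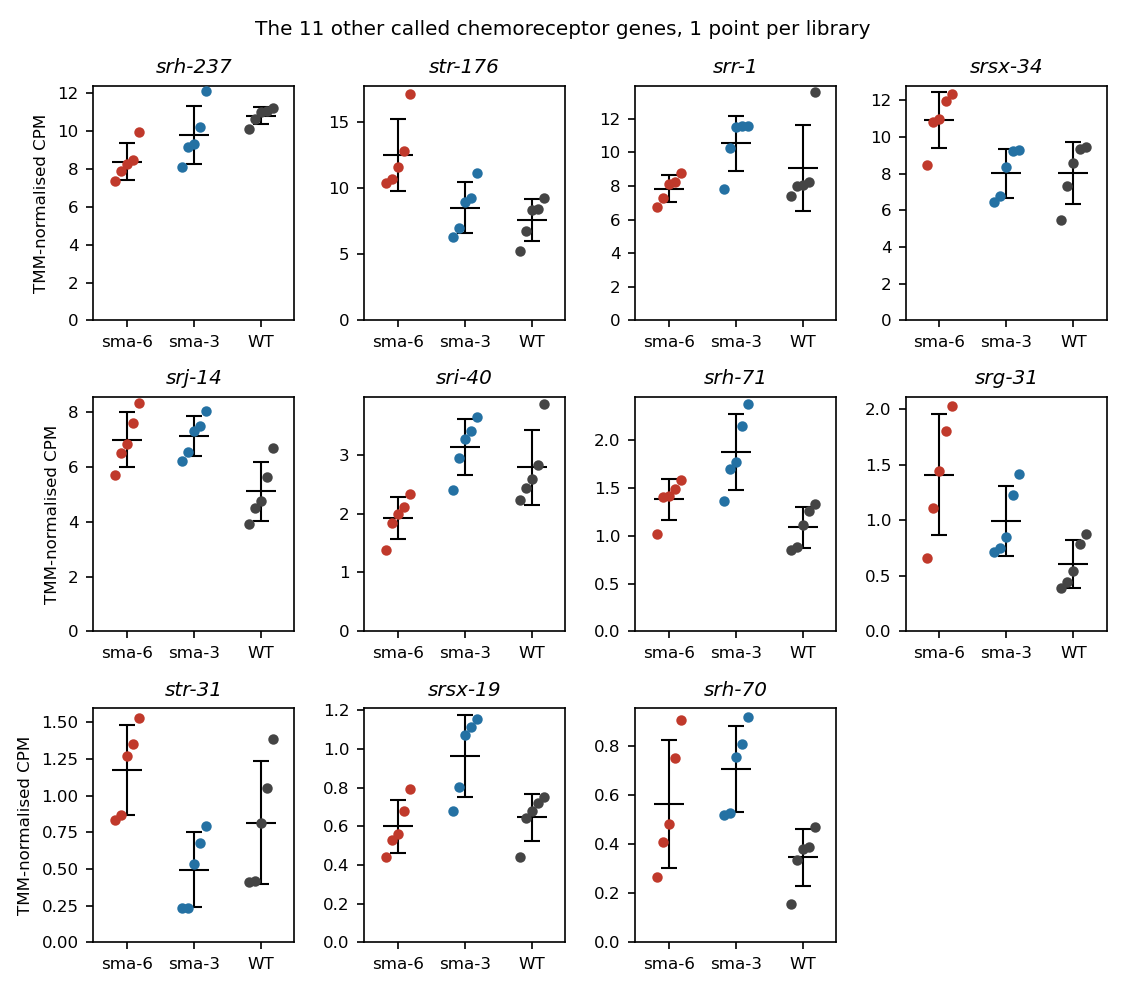
TMM-normalised CPM per library of the 11 called chemoreceptor genes other than *srw-85*, with mean and SD of the 5 libraries of each genotype. Most ranges overlap; *srh-237* and *str-176* in *sma-6* mutants and *srh-71* and *srh-70* in *sma-3* mutants do not overlap the wild type, and *sri-40* and *str-31* do not overlap between the mutants.

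In the Srg superfamily 14 of 135 listed genes met the level, and its medians lay closest to 0, at -0.0089 in *sma-6* mutants and -0.09 in *sma-3* mutants on the log2 scale. *srg-31* was its only called gene. It was at 1.11, 1.44, 0.662, 1.81 and 2.03 CPM in *sma-6* mutants and at 0.387, 0.542, 0.784, 0.442 and 0.879 CPM in the wild type, with 1 *sma-6* library inside the wild-type range. The log2 ratio was 1.23 ± 0.32 (SE; edgeR adjusted p = 0.0243). The call was lost without wild-type replicate 1, 2 or 4 or *sma-6* replicate 2, 4 or 6 (edgeR adjusted p of 0.0537 to 0.0721). In *sma-3* mutants *srg-31* averaged 0.993 ± 0.313 CPM (SD, n = 5; log2 ratio 0.71, edgeR adjusted p = 0.154).

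*srv-1* (WBGene00005712; chromosome III, 6850385 to 6853203) ranked after *srr-4* and *srw-85* per kb in the wild type, at 13.5 CPM per kb. It averaged 18.3 ± 2.35 CPM in *sma-6* mutants, 15.7 ± 1.47 CPM in *sma-3* mutants and 18.2 ± 1.31 CPM in the wild type (SD, n = 5 each), with no call. *srx-45* averaged 3.41 ± 0.239 CPM in *sma-6* mutants, 3.4001 ± 0.652 CPM in *sma-3* mutants and 2.54 ± 0.369 CPM in the wild type (SD, n = 5 each). Its log2 ratios against the wild type were 0.41 and 0.40 for *sma-6* and *sma-3* mutants and missed the threshold (edgeR adjusted p = 0.111 and 0.0719). *srt-42* averaged 1.62 ± 0.215, 1.39 ± 0.292 and 1.01 ± 0.522 CPM in *sma-6* mutants, *sma-3* mutants and the wild type (SD, n = 5 each), also with no call.

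In the Sra superfamily 11 of 65 listed genes met the level and none was called in any comparison by edgeR, DESeq2 or limma-voom. At an unadjusted p under 0.05 edgeR had 1 of them, in *sma-3* mutants against the wild type. *sra-10* averaged 1.47 ± 0.209 CPM in *sma-6* mutants, 1.63 ± 0.442 CPM in *sma-3* mutants and 1.13 ± 0.0587 CPM in the wild type (SD, n = 5 each). Both mutants lay above all wild-type libraries, yet the log2 ratios of 0.38 and 0.53 missed the threshold (edgeR adjusted p = 0.282 and 0.0721). *sra-6*, whose reporter marks the ASH nociceptive neurons, averaged 0.551 ± 0.211, 0.563 ± 0.237 and 0.497 ± 0.296 CPM in *sma-6* mutants, *sma-3* mutants and the wild type (SD, n = 5 each). *srab-14* averaged 2.14 ± 0.499, 1.88 ± 0.445 and 1.90 ± 0.182 CPM and *sre-4* averaged 1.40 ± 0.208, 1.94 ± 0.557 and 1.53 ± 0.411 CPM in the same groups (SD, n = 5 each).

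The chemoreceptor genes lie mostly on chromosome V. It holds 33 of the 59 (55.9%), 310 of the 518 family genes (59.8%) and 22.6% of all listed genes. Adjacent members within 20 kb of each other formed 3 pairs, all on chromosome V: *srd-32* with *srd-33*, *srr-6* with *srr-4*, and *srab-4* with *srsx-32*. With edgeR as used throughout, no gene of these pairs was called in any comparison. Other edgeR settings and DESeq2 called *srr-4* higher in *sma-3* mutants against the wild type.

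Other genes of the same sensory system were read beside the receptors. Of 53 genes of chemosensory signalling and sensory neuron identity 52 were tested, and in *sma-6* mutants none was called against the wild type, where the median log2 ratio was 0.0072. In that comparison 7 had an unadjusted p under 0.05 with edgeR, DESeq2 called 2 and limma-voom 1. In *sma-3* mutants 7 were called higher and none lower, with a median of 0.20 and 47 of 52 above 0, where 4.40% of all genes tested were called higher. Without wild-type replicate 5 the count was 12. It was from 1 to 3 without wild-type replicate 1, 2, 3 or 4 or *sma-3* replicate 3, 4 or 9. Shares of all genes are not given for the fits without a library or for DESeq2 and limma-voom. Between the mutants 8 were called lower in *sma-6* mutants, where 10.3% of all genes were, and none higher.

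The G protein alpha subunit gene *gpa-9* averaged 0.752 ± 0.324 CPM in *sma-6* mutants, 1.55 ± 0.361 CPM in *sma-3* mutants and 0.822 ± 0.337 CPM in the wild type (SD, n = 5 each). It was called in *sma-3* mutants against the wild type (log2 ratio 0.94, edgeR adjusted p = 0.0389) and between the mutants (-1.03, edgeR adjusted p = 0.0181). *daf-7*, the TGF-beta ligand made in the ASI neurons, averaged 66.6 ± 10.8, 82.0 ± 4.96 and 64.9 ± 2.05 CPM in *sma-6* mutants, *sma-3* mutants and the wild type (SD, n = 5 each). In *sma-3* mutants its log2 ratio to the wild type was 0.34 (edgeR adjusted p = 0.0148). The receptor kinase gene *grk-2* (log2 ratio 0.22, edgeR adjusted p = 0.0484) and the phosphodiesterase gene *pde-1* (0.20, edgeR adjusted p = 0.0326) were higher in the same comparison. The call of *gpa-9* against the wild type was lost without wild-type replicate 1, 2, 3 or 4, *sma-3* replicate 2, 4, 5 or 9 or *sma-6* replicate 2 (edgeR adjusted p of 0.0511 to 0.0982). That of *grk-2* was lost without wild-type replicate 1, 2, 3 or 4, *sma-3* replicate 2, 3, 4 or 9 or *sma-6* replicate 3 or 6, and that of *pde-1* without wild-type replicate 2, 3 or 4 or *sma-3* replicate 3 or 4 (edgeR adjusted p of at most 0.116).

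Between the mutants *gpa-4*, another G protein alpha subunit gene, was at 4.23 ± 0.734 CPM in *sma-6* mutants and 6.27 ± 1.21 CPM in *sma-3* mutants (SD, n = 5 each; log2 ratio -0.57, edgeR adjusted p = 0.00957). *grk-1*, a second receptor kinase gene, differed by -0.23 (edgeR adjusted p = 0.0132), *pde-1* by -0.35 (edgeR adjusted p = 0.000774), *grk-2* by -0.27 (edgeR adjusted p = 0.0132) and *daf-7* by -0.30 (edgeR adjusted p = 0.0175). All 5 were lower in *sma-6* mutants. In the fit to the 13 libraries with a recurring number the calls of *gpa-4*, *grk-1*, *grk-2* and *daf-7* were lost (edgeR adjusted p of 0.0519 to 0.0593), while *pde-1* was still called.

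Genes of the sensory cilium, in which the receptors are held, were called higher in 16 of 46 cases in *sma-3* mutants against the wild type and in none lower, with a median of 0.31, where 4.40% of all genes were called higher. In *sma-6* mutants edgeR, DESeq2 and limma-voom called none against the wild type, with 4 at an unadjusted p under 0.05 in edgeR, and 18 were lower than in *sma-3* mutants, where 10.3% of all genes were. The Bardet-Biedl gene *bbs-2* averaged 2.45 ± 0.320, 3.95 ± 0.550 and 2.15 ± 0.217 CPM in *sma-6* mutants, *sma-3* mutants and the wild type (SD, n = 5 each; log2 ratio in *sma-3* mutants 0.87, edgeR adjusted p = 0.000865). Without wild-type replicate 5 the cilium count in *sma-3* mutants against the wild type was 21. Without wild-type replicate 4 or *sma-3* replicate 9 it was 10. For these fits the shares of all genes are not given. Cilium transcripts summed to 393 to 442 CPM in *sma-6* mutants, 479 to 541 CPM in *sma-3* mutants and 400 to 464 CPM in the wild type.

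Of 19 general neuron genes edgeR, DESeq2 and limma-voom called none in *sma-6* mutants against the wild type, with 1 at an unadjusted p under 0.05 in edgeR, and 2 were higher in *sma-3* mutants, with a median log2 ratio of 0.12 there and 4.40% of all genes called higher. Without wild-type replicate 5 or *sma-3* replicate 9 the count in *sma-3* mutants was 4. Between the mutants 4 were lower in *sma-6* mutants, where 10.3% of all genes were, and 2 without *sma-6* replicate 2 or 3. For the fits without a library the shares of all genes are not given. Their sum ran from 1795 to 2180 CPM in *sma-6* mutants, from 2034 to 2307 CPM in *sma-3* mutants and from 1919 to 2058 CPM in the wild type. No gene of the signalling, cilium or neuron lists was at 0 in every library.

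Markers of other tissues also moved. Of 8 intestine genes 3 were called lower in *sma-6* mutants and 4 in *sma-3* mutants against the wild type, where 3.51% and 10.2% of all genes were. Their sums were 5747 to 6865 CPM in *sma-6* mutants, 5950 to 7390 CPM in *sma-3* mutants and 6262 to 7069 CPM in the wild type. Of 7 tested germline genes 4 were called higher in *sma-6* than *sma-3* mutants, where 12.7% of all genes were. Their median log2 ratio was 0.46, with all 7 above 0. Sums over the 8 listed were 232 to 380 CPM in *sma-6* mutants, 184 to 214 CPM in *sma-3* mutants and 169 to 284 CPM in the wild type. Against the wild type 1 of 8 body wall muscle genes was called higher in each mutant, where 3.00% of all genes were in *sma-6* and 4.40% in *sma-3* mutants. In *sma-6* mutants 1 of 8 epidermis genes was called lower than in the wild type, where 3.51% of all genes were. Against the wild type edgeR called no pharynx gene, with 0 at an unadjusted p under 0.05 in *sma-6* and 1 in *sma-3* mutants. The part of the signalling, cilium, neuron and tissue lists in the receptor values was not tested.

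**Figure D5:**
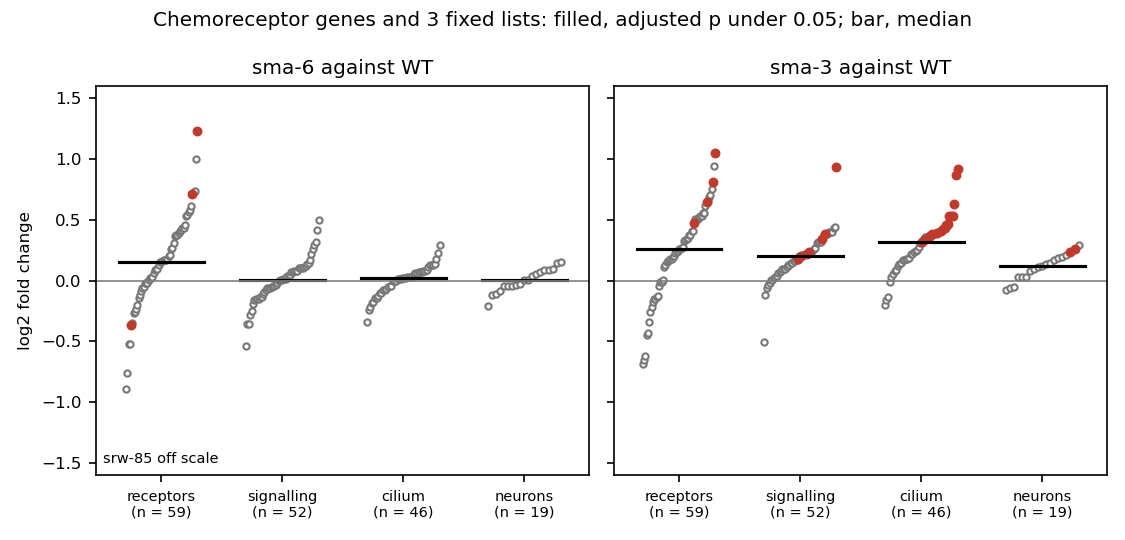
Log2 fold changes against the wild type of the chemoreceptor genes and of the genes of chemosensory signalling, the cilium and neurons in *sma-6* and *sma-3* mutants, with the median of each list as a bar. In *sma-6* mutants the medians are 0.15, 0.0072, 0.02 and 0.0063, and in *sma-3* mutants 0.26, 0.20, 0.31 and 0.12; *srw-85* in *sma-6* mutants, at -5.45, lies off the scale.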

How the data were processed

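Per the submitters' processing notes, bcl2fastq, STAR 2.5.2b, featureCounts 1.5.2 and limma were used with the build WBcel235. The authors deposited whole-number counts per gene and library, CPM of each count over the library total, and log2 fold changes, p-values and false discovery rates that compare *sma-3* mutants with the wild type. The deposited CPM chose the genes and matched CPM recomputed from the counts to within 0.0005. Whether counting used strand, and how reads shared between paralogs were treated, was not given in the sources used here. Of the 59 genes 23 overlap another annotated gene, so their counts are less certain.

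Counts were tested with edgeR 4.0.16 in R 4.3.3 by quasi-likelihood over all 15 libraries, with genotype as the only factor, TMM factors and filterByExpr (minimum count 10, minimum total 15). All 59 genes were among the 13720 tested. A called gene had a p, adjusted by Benjamini-Hochberg over all genes tested, under 0.05. The log2 ratio is the fitted log2 fold change. Standard errors came from the F statistic. Levels are TMM-normalised CPM with SD, and levels per kb divide by the union of exons. Coordinates and overlaps come from an Ensembl annotation of WBcel235, in which 16068 of the 16259 listed genes were found. Alternatives were other scalings and filters, DESeq2 1.42.0, limma-voom (limma 3.58.1), fits to the compared genotypes only, other levels, each library left out and a replicate block. The code was tested on simulated data. Counting limits and the low-count level cover counting error only. Replicate pairs differed beyond sampling noise, with a chi-square of 5.31 to 42.3 per degree of freedom.

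The genes and lists were chosen with earlier results of these data known. Genes named are *srw-85*, every called member, the member highest in CPM of each family with at least 3, *odr-10* and *sra-6*, those next to the level, the 5 listed neighbours of *srw-85* on each side and up to 6 called signalling genes. *srr-6*, *sru-27*, *bbs-2* and the genes at the ends of ranges were named after their values were seen. One receptor gene is not reported here.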

Additional observations from a re-analysis of the deposited data

Results flagged for a closer look

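In 13 of 132 groups, the 3 genotypes of each of 44 named genes, 1 library lay apart: its gap to the nearest library divided by the range of the group exceeded 0.71, Dixon's 95% critical value for 5 libraries. Chance flags about 1 in 20 groups. Among the receptor genes, *srw-85* in wild-type replicate 4 reached 41.6 CPM, while the rest of that genotype lay at 34.9 to 36.2 CPM. *srr-4* was at 85.6 CPM in *sma-6* replicate 3, against 109 to 114 CPM in the other *sma-6* libraries. *srr-1* in wild-type replicate 5 reached 13.6 CPM, while the rest lay at 7.42 to 8.21 CPM. *srd-53* was at 6.16 CPM in *sma-3* replicate 4, against 2.81 to 3.73 CPM. *odr-10* was at 4.18 CPM in *sma-6* replicate 4, against 1.80 to 2.44 CPM, and at 3.68 CPM in *sma-3* replicate 5, against 1.82 to 2.16 CPM.

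Of the genes next to the level, *srh-2* was at 1.32 CPM in *sma-6* replicate 4, against 0.264 to 0.496 CPM in the other *sma-6* libraries. *srm-4* in wild-type replicate 4 reached 0.758 CPM, against 0.410 to 0.501 CPM, and *srh-129* at 0.948 CPM in the same library, against 0.209 to 0.396 CPM. Of the neighbours of *srw-85*, *C25F9.5* was at 5.07 CPM in *sma-6* replicate 6, against 3.77 to 4.02 CPM, and *C25F9.9* at 2.75 CPM in *sma-3* replicate 3, against 1.89 to 2.13 CPM. Of the signalling genes, *grk-1* was at 58.6 CPM in *sma-3* replicate 5, against 68.8 to 70.2 CPM, and *gpa-9* in wild-type replicate 5 at 1.41 CPM, against 0.569 to 0.775 CPM.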

How the results depend on the processing

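Of 2905 values of single named genes under an alternative, 2714 counted as unchanged. These kept the call and its direction or, where uncalled, moved by less than their standard error, whatever their sign. Of the rest 151 lost the call, 25 gained one, 15 moved in level and none changed sign as a called value. *srw-85* ran from -5.64 to -5.36 on the log2 scale in *sma-6* mutants against the wild type, from 0.62 to 0.73 in *sma-3* mutants against the wild type and from -6.28 to -6.01 between the mutants. With 1 library left out, the count of called receptor genes ran from 1 to 4 in *sma-6* mutants against the wild type, where 4 had been called, from 2 to 7 in *sma-3* mutants against the wild type, where 4 had been called, and from 2 to 7 between the mutants, where 7 had been called, *srw-85* counted in all. The lowest counts were those without *sma-6* replicate 4, without wild-type replicate 3, *sma-3* replicate 5 or *sma-3* replicate 9, and without *sma-6* replicate 2. *srw-85* was singled out for its fall in *sma-6* mutants, so its place in the counts with them is no test. Leaving it out, 3 genes had been called in *sma-6* mutants against the wild type and 6 between the mutants. Shares of all genes are not given for these fits. Scaling by library totals only gave 7 genes in *sma-3* mutants against the wild type, adding *srr-4*, *sra-10* and *srx-45*, and moved the median of all genes there to 0.09 from 0.01. Scaling by DESeq2's size factors, no low-count filter, a minimum count of 30, DESeq2, limma-voom, fits to the compared genotypes only and levels of 1 or 0.2 CPM stayed within 1.5 times each count. In all alternatives the calls in *sma-3* mutants against the wild type were higher.

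The replicate numbers share no stated origin. Deviations of 11 same-numbered pairs correlated at -0.143 to 0.145 (median 0.0684) and of 64 other pairs at -0.293 to 0.404 (median -0.0016). The ranges overlap, and whether the numbers pair the libraries cannot be told from so few pairs. With a replicate block over the 13 libraries whose number recurs, 2, 1 and 1 receptor genes were called in *sma-6* mutants against the wild type, *sma-3* mutants against the wild type and between the mutants. *srw-85* was in each count, which is no test in the comparisons with *sma-6* mutants, for whose fall it was singled out. The only other gene was *srh-237* in *sma-6* mutants against the wild type. The same 13 libraries without the block gave 3, 1 and 3, again with *srw-85* counted. For these fits too the shares of all genes are not given. With the block the edgeR adjusted p in *sma-3* mutants against the wild type was 0.0743 for *srh-71*, 0.0548 for *daf-7*, 0.1 for *gpa-9*, 0.104 for *grk-2* and 0.0784 for *pde-1*. Between the mutants it was 0.0640 for *sri-40*, 0.110 for *gpa-4*, 0.115 for *gpa-9*, 0.0753 for *grk-1*, 0.0765 for *grk-2* and 0.0986 for *daf-7*, while *pde-1* was still called. Of the neighbours of *srw-85*, *C25F9.4* (0.077) and *M04C3.1* (0.129) lost the call between the mutants, and *C25F9.5* and *C25F9.9* kept it. The cause was not tested. The median standard error of a log2 fold change was 0.29 over the 58 genes other than *srw-85* in *sma-6* mutants against the wild type. Shifts well above that size could go uncalled in single low receptors, as did -0.89 in *srt-28* (edgeR adjusted p = 0.122).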
